A study of Mus musculus with 16 samples.

Results

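The Rab GTPases were followed at the RNA level in mouse CFU-E cells, the colony-forming erythroid progenitors of the bone marrow. Members were every gene symbol that begins with Rab, continues with a number and carries at most 1 letter and 1 further digit. This gave 52 of the 15386 genes in the RNA-seq table and 54 of the 13490 genes in the m6A table, 56 different genes in all, of which 50 were in both tables. Rab7b and Rab39b were in the RNA-seq table only, and Rab6b, Rab17, Rab20 and Rab25 were in the m6A table only.

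The study deleted Mettl3, the catalytic subunit of the enzyme that writes N6-methyladenosine (m6A) on mRNA, with a Cre recombinase placed at the erythropoietin receptor gene together with tdTomato. The mutant mice were Mettl3 fl/fl EpoR Cre/–, on a C57BL/6 background, adult and of both sexes, and this Cre also recombines in the macrophages of erythroblastic islands. The RNA-seq comparison set 3 libraries of control CFU-E against 3 libraries of Mettl3-deficient CFU-E Kit-lo, and the m6A comparison set 2 immunoprecipitated (IP) libraries against 2 input libraries of control CFU-E. All cells were sorted from bone marrow as live, lineage-negative, Kit+ CD71+ progenitors, and the alleles of the control mice are not given in the sources used here beyond the word control. The RNA-seq groups differ in genotype and in the Kit level of the sort gate, and these cannot be told apart. Nothing says that the libraries of a group came from separate animals, so p-values measure the spread between libraries, which may be technical.

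Total estimated counts were 17429262 to 21329242 in the RNA-seq libraries and 19421059 to 37142742 in the m6A libraries. Levels are given as CPM, the usual read count scaled to the TMM-normalised library size. Kit, the receptor used in the gate, averaged 598 ± 47.1 CPM in control and 55.2 ± 12.4 CPM in the Kit-lo libraries (SD, n = 3 each). Mettl3 itself, the targeted gene, gave 115, 123 and 130 CPM in control against 117, 127 and 108 CPM in the mutant libraries. Its gene-level count thus overlapped between the groups (log2 fold change –0.07 ± 0.10 SE). A gene-level count does not show which exons the reads came from. The paper reports that erythroid cells of these mice lacked Mettl3 mRNA by qRT-PCR and its protein by Western blot, with a lower total m6A level. Of 17 late erythroid marker genes tested, 13 rose and none fell, and their summed level went from between 1940 and 2120 CPM to between 5900 and 7950 CPM. Of 10 early progenitor markers tested, 5 fell and none rose, with a summed level of 1730 to 1830 CPM in control and 689 to 924 CPM in Kit-lo. Kit, the receptor used in the gate, is among those that fell and is part of these sums. The part of the sort gate in this fall cannot be told apart from that of genotype. Macrophage markers summed to 23.0 to 28.4 CPM in control and 12.6 to 16.4 CPM in Kit-lo (2 of 6 tested fell), granulocyte markers to 25.8 to 39.2 and 16.2 to 24.8 CPM (1 of 4 rose and 1 fell), and megakaryocyte markers to 21.5 to 29.4 and 21.7 to 29.6 CPM (2 of 5 rose and 1 fell). The macrophage marker Adgre1 was at 0 in every Kit-lo library. The part of these marker differences in the RNA-seq values of the Rab genes was not tested. In bulk RNA, fewer cells of a type and less RNA per cell cannot be told apart.

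Rab proteins are small GTPases that mark the membranes of the secretory and endocytic pathways. Bound to GTP they recruit effectors such as tethers and motors. Guanine nucleotide exchange factors (GEFs) switch them on and GTPase-activating proteins (GAPs) switch them off. Most Rabs are held on their membranes by geranylgeranyl lipids that Rab geranylgeranyl transferase adds to cysteines at the carboxyl end. GDI takes the GDP-bound form back into the cytosol. Developing red cells use these routes for the rapid recycling of the transferrin receptor and, later, for clearing organelles.

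The lipid-bearing end could be read from the coding sequence. In the GENCODE M21 transcripts of build GRCm38, 47 of the 56 members had at least 2 cysteine codons among the last 5 codons before the stop (83.9%), the other 9 had 1, and the share among 14785 genes with a coding transcript was 1.21%. The last 30 coding bases are shown for members on which the results turn and for the Rab4 and Rab8 paralogs, to show the ends on which the lipid-adding enzyme acts. Cysteine codons among the last 5 are in capitals and the stop codon closes each line. Rab4a lies at chr8:123834101-123834130 (+ strand), Rab4b at chr7:27172652-27172681 (–), Rab5a at chr17:53506400-53506429 (+), Rab8a at chr8:72180108-72180137 (+), Rab8b at chr9:66847719-66847748 (–), Rab38 at chr7:88490731-88490760 (+) and Rab2a at chr4:8606474-8606503 (+).
Rab4a: gctccaagtgcacaggagTGTggcTGCtag
Rab4b: gccgtggcccctcagcccTGTggcTGCtga
Rab5a: ccagccagaagccagTGTTGTagtaactga
Rab8a: accagcttcttccggTGCagtctcctgtga
Rab8b: accagtttcttccgcTGTtctctgctttga
Rab38: gtcagctgctctggcTGTgccaaatcctag
Rab2a: ggacagcaggcagggggaggcTGCTGTtga
Rab4a and Rab4b ended with the same cysteine, glycine, cysteine codon order, while Rab8a, Rab8b and Rab38 carried a lone cysteine codon followed by 3 others.

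In the RNA-seq libraries, control CFU-E expressed a broad set of Rab genes, led by those of the early secretory pathway and of late endosomes. Per kb of the longest coding transcript, the 5 highest control levels belonged to Rab1b, at 236 CPM per kb, Rab7, at 136, Rab8a, at 91.5, Rab1a, at 88.1, and Rab4a, at 79.7 CPM per kb. Rab1a and Rab1b act in transport from the ER to the Golgi, Rab7 on late endosomes and lysosomes, Rab8a in delivery to the cell surface and Rab4a in fast recycling from early endosomes. The control RNA-seq libraries of Rab8a and Rab1a overlapped in this order, and those of the other neighbours in it did not. The m6A input libraries of control CFU-E, a different library type, gave another order. Their mean levels were 320 CPM per kb for Rab4a, 223 for Rab1b, 175 for Rab24, 136 for Rab2a and 124 for Rab7. Rab8a was there at 92.7 and Rab1a at 20.5 CPM per kb. Summed over the 52 members, the level was 2979 ± 49.5 CPM in control and 3010 ± 42.5 CPM in Kit-lo (SD, n = 3 each). These sums differed by less than the spread between libraries.

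A call in RNA-seq required an adjusted p under 0.05 and a change of at least 1.5-fold. Of the 52 members, 43 passed the filter on low counts, 5 of them were called higher in Mettl3-deficient CFU-E Kit-lo and 3 lower. Over all 11979 genes tested, 12.1% were called higher and 9.83% lower, against 11.6% and 6.98% of the tested members, so both shares of the members lay near the background. The median log2 fold change was 0.04 over the tested members and 0.01 over all genes. A fitted change within 1.5-fold was found for 31 of 43 members (72.1%), and for 67.1% of all genes. With no demand on fold size, 8 members were higher and 8 lower at the same adjusted p, where the background was 17.6% and 16.9% of all genes.

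**Figure D1:**
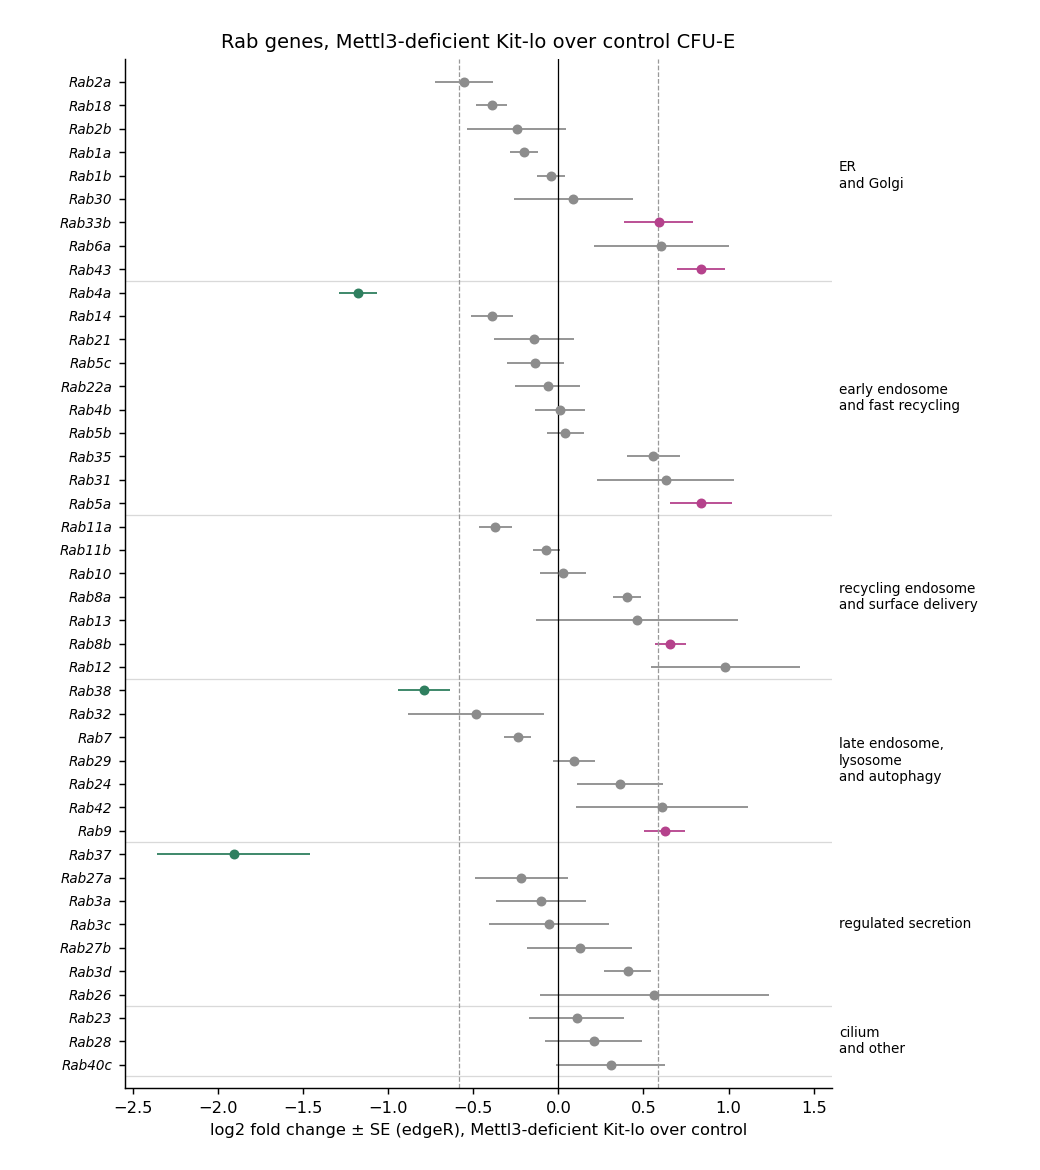
Log2 fold change, Mettl3-deficient CFU-E Kit-lo over control, of each of the 43 tested Rab genes (horizontal axis, edgeR estimate ± SE), grouped by the membrane on which the protein acts. Purple points are the 5 genes called higher, green points the 3 called lower, grey points the others, and dashed lines mark a 1.5-fold change.

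Among the Rabs of early endosomes, Rab4a fell and Rab5a rose. Rab4a, which returns receptors such as the transferrin receptor rapidly to the surface, gave 118, 115 and 107 CPM in control against 55.9, 44.3 and 49.9 CPM in Kit-lo. Every Kit-lo library was below every control library, and the fitted fall was 2.26-fold (log2 fold change –1.18 ± 0.11 SE, edgeR adjusted p = 4.0e-05). The gene lies on chromosome 8 (123805985 to 123835287, + strand, GRCm38). Its paralog Rab4b was at 47.3, 42.5 and 60.6 CPM in control and 54.8, 49.3 and 47.2 CPM in Kit-lo, with overlapping groups and a log2 fold change of 0.01 ± 0.15. The annotated exons of Rab4b share 65.0% of their bases with the readthrough gene Gm21983 on the same strand, so its count is less certain.

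Rab5a, a main switch of early endosome fusion, was at 12.3, 11.4 and 8.64 CPM in control and at 19.7, 18.3 and 19.9 CPM in Kit-lo. The groups did not overlap, and the rise was 1.79-fold (log2 0.84 ± 0.18, edgeR adjusted p = 0.00548). Rab5b and Rab5c, which share that role and had the higher levels in RNA-seq, had log2 fold changes of 0.04 ± 0.11 and –0.14 ± 0.17 and overlapping groups. In the m6A input libraries of control CFU-E, Rab5b was instead below Rab5a, at a mean of 7.30 against 26.6 CPM. Rab35, which acts in endocytic recycling and in actin-linked steps, lay just below the fold limit at 1.47-fold (25.0 ± 4.51 CPM in control and 36.9 ± 2.88 CPM in Kit-lo, edgeR adjusted p = 0.0194). Rab14, which works between endosomes and the Golgi, was at 108.5 ± 10.2 CPM in control and 82.9 ± 11.8 CPM in Kit-lo (log2 –0.39 ± 0.12, edgeR adjusted p = 0.0343) and was likewise under the fold limit.

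Both Rab8 genes had an adjusted p under 0.05 on the high side, and Rab8b alone of them passed the fold limit. Rab8b, which like Rab8a directs carriers to the plasma membrane and to cilia, was at 130, 133.5 and 136 CPM in control and at 229, 211 and 189 CPM in Kit-lo. The groups did not overlap and the rise was 1.58-fold (log2 0.66 ± 0.09, edgeR adjusted p = 0.000411). Without Kit-lo replicate 1 its log2 fold change was 0.58, just under the fold limit. Rab8a was at 424, 390.3 and 434 CPM in control and at 543, 511 and 595 CPM in Kit-lo, a 1.32-fold difference (log2 0.40 ± 0.08, edgeR adjusted p = 0.00413). Rab11a, the main Rab of the recycling endosome, went the other way within the fold limit, from 82.5 ± 4.26 to 63.8 ± 2.31 CPM (log2 –0.37 ± 0.09, edgeR adjusted p = 0.0129). Its paralog Rab11b had a log2 fold change of –0.07 ± 0.08, with overlapping groups.

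Rab43 and Rab33b, both of the Golgi, were called higher. Rab43, a Golgi Rab that takes part in traffic from the ER, was at 30.9, 37.4 and 33.4 CPM in control and at 53.8, 57.2 and 70.7 CPM in Kit-lo, without overlap (1.79-fold, log2 0.84 ± 0.14, edgeR adjusted p = 0.00119). Its exons share 75.4% of their bases with Gm45140 on the same strand, a gene listed at 0 to 6.27 CPM, so reads could be split between the pair. Rab33b, which also binds the autophagy protein Atg16l1, was at 13.9, 8.69 and 10.3 CPM in control and at 16.1, 16.6 and 17.04 CPM in Kit-lo. It passed narrowly (1.51-fold, log2 0.59 ± 0.20, edgeR adjusted p = 0.0458) and lost its call in 8 of 13 alternatives. The most abundant Rabs of this group did not pass: Rab1b was at 468, 433 and 453 CPM in control and 479, 407 and 429 CPM in Kit-lo, and Rab1a at 260.0, 245 and 242 CPM in control and 212, 235 and 202 CPM in Kit-lo (log2 –0.20 ± 0.08, edgeR adjusted p = 0.0886). Rab2a, which acts at the Golgi and in lysosome fusion, was lower within the fold limit, at 32.9 ± 3.18 CPM in control and 22.4 ± 4.47 CPM in Kit-lo (log2 –0.55 ± 0.17, edgeR adjusted p = 0.0302).

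Rab6a, which serves transport within the Golgi and back to the ER, had the widest spread in the mutant group. Its Kit-lo libraries were at 31.9, 104.5 and 127 CPM, against 49.3, 75.4 and 48.6 CPM in control, and the groups overlapped (log2 0.60 ± 0.40, edgeR adjusted p = 0.278). Without Kit-lo replicate 1 the log2 fold change was 0.999 ± 0.19 (edgeR adjusted p = 0.00251). Rab28 showed the same low library, with 17.5, 39.0 and 41.4 CPM in Kit-lo and 24.5, 34.6 and 25.7 CPM in control. The exons of Rab6a overlap those of Mrpl48 on the opposite strand over 19.0% of their bases, and whether the counting used strand is not stated.

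Of the Rabs of late endosomes, lysosomes and related organelles, Rab9 rose and Rab38 fell. Rab9, which works in return from late endosomes to the Golgi, was at 48.1, 54.9 and 46.8 CPM in control and at 70.3, 87.8 and 72.5 CPM in Kit-lo, with no overlap (1.54-fold, log2 0.62 ± 0.12, edgeR adjusted p = 0.00315). Its fold fell under the limit in 3 of 13 alternatives. Rab38, known from the biogenesis of melanosomes and platelet dense granules, was at 68.0, 84.9 and 89.9 CPM in control and at 50.8, 51.9 and 37.7 CPM in Kit-lo (1.73-fold lower, log2 –0.79 ± 0.15, edgeR adjusted p = 0.00291), again without overlap. Its closest relative Rab32 had a log2 fold change of –0.48 ± 0.40, which did not pass. Rab7, the general late endosome Rab, was at 318, 283 and 280 CPM in control and 256, 243 and 248 CPM in Kit-lo, a 1.18-fold difference (log2 –0.24 ± 0.08, edgeR adjusted p = 0.0409). Over 13 alternatives its adjusted p ran from 0.021 to 0.17, both ends by edgeR.

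Among the Rabs of regulated secretion, Rab37 gave the deepest fall of any tested member. Rab37, best known from mast cell and other secretory granules, was low throughout, at 2.68, 2.23 and 2.98 CPM in control and at 0.57, 0.58 and 0.94 CPM in Kit-lo (3.75-fold lower, log2 –1.91 ± 0.45, edgeR adjusted p = 0.00857). Rab44, a long Rab of mast cell and other granules, did not pass the filter: it had 38, 11 and 6 counts in the control libraries and 0 in each Kit-lo library. Taking 3 counts over the Kit-lo group as the floor and the control counts as exact, it was at least 19.4-fold lower in Kit-lo. Without control replicate 1, which held most of the control counts, it was at least 9.57-fold lower. This bound covers counting error in the Kit-lo zeros only. Of 12 mast cell and basophil markers 7 were in the table, with a summed level of 165 to 199 CPM in control and 49.4 to 65.0 CPM in Kit-lo. Gata2 and Il1rl1, which early progenitors also express, made up nearly all of it, and the other 5, including Cpa3 and Mcpt8, each averaged under 1 CPM in control. Cpa3 was at 0 in every Kit-lo library, as Rab44 was. The part of such cells in the Rab37 and Rab44 values was not tested. Rab3d, a Rab of secretory granules, was higher within the fold limit (25.8 ± 0.59 CPM in control and 34.1 ± 4.71 CPM in Kit-lo, log2 0.41 ± 0.14, edgeR adjusted p = 0.0466), while Rab27a and Rab27b did not pass.

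**Figure D2:**
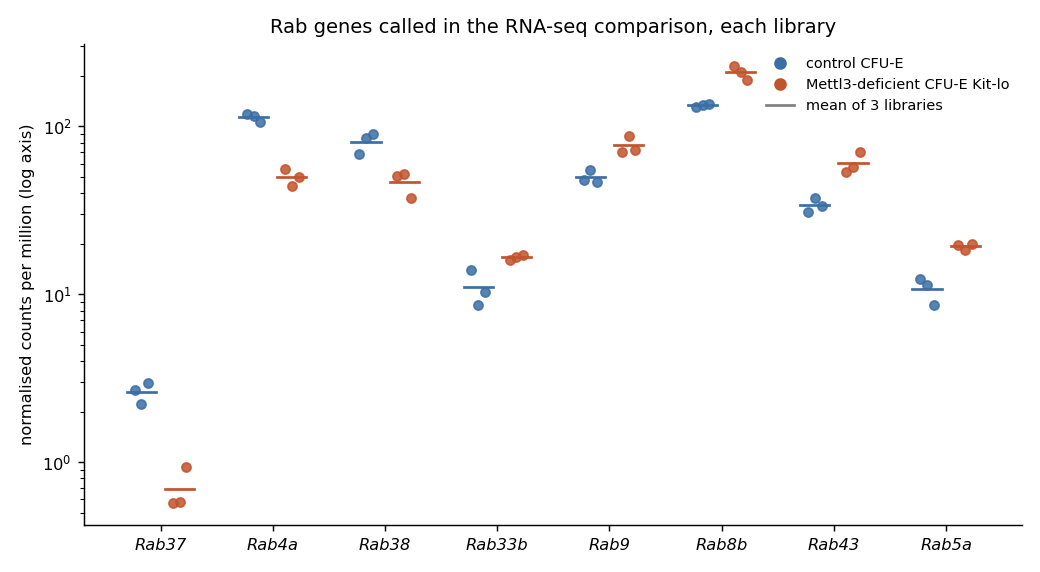
Level of each called Rab gene in every RNA-seq library (vertical axis, normalised CPM on a log axis), blue for the 3 control and orange for the 3 Mettl3-deficient CFU-E Kit-lo libraries, with a bar at the group mean. The groups do not overlap for any of the 8 genes, and Rab37 lies below 3 CPM in all libraries.

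Groups without overlap were common in this comparison: 10 tested members had every Kit-lo library above every control library and 9 had the opposite, where 23.5% and 24% of all tested genes did so. The 9 members that were not tested, Rab7b, Rab9b, Rab19, Rab33a, Rab34, Rab36, Rab39b, Rab40b and Rab44, each averaged under 1 CPM in control. Rab18, of the ER and lipid droplets, was the remaining member with an adjusted p under 0.05, at 195 ± 10.1 CPM in control and 149 ± 13.7 CPM in Kit-lo (log2 –0.39 ± 0.09, edgeR adjusted p = 0.00834). The other 27 tested members did not reach that adjusted p; they included Rab12, a Rab of degradation of recycling receptors, which had the largest positive log2 fold change of all (0.98 ± 0.44) at only 1.27 CPM in control.

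Within a family, reads per kb of transcript give a share that does not depend on the scaling between libraries. Rab4a made up 67.7, 69.4 and 59.6% of Rab4a plus Rab4b in control, against 46.2, 43.0 and 47.0% in Kit-lo, a mean difference of –20.2 percentage points. The groups did not overlap. The share rests on the transcript length used for each gene and on the Rab4b count, which is less certain for its overlap with Gm21983. Rab5a made up 9.69 ± 1.49% of the 3 Rab5 genes in control and 16.7 ± 1.19% in Kit-lo, also without overlap. The groups did not overlap either for Rab11a, at 45.6 ± 2.46% of the Rab11 pair in control and 40.5 ± 0.97% in Kit-lo, and for Rab3d, at 64.5 ± 2.43% and 71.9 ± 2.76% of Rab3a, Rab3c and Rab3d (SD, n = 3). Shares overlapped between the groups for Rab1a, Rab2a, Rab8a and Rab27a. The m6A input libraries of control CFU-E, a different library type, gave other shares. They were 77.1 and 76.4% for Rab4a, 15.1 and 13.7% for Rab5a, 57.7 and 64.1% for Rab11a and 28.4 and 29.8% for Rab3d. The shares are thus comparable only within a library type. The 8 families were picked with the fitted values known, and 3 libraries against 3 cannot give an exact two-sided permutation p below 0.1, so these shares are descriptions.

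**Figure D3:**
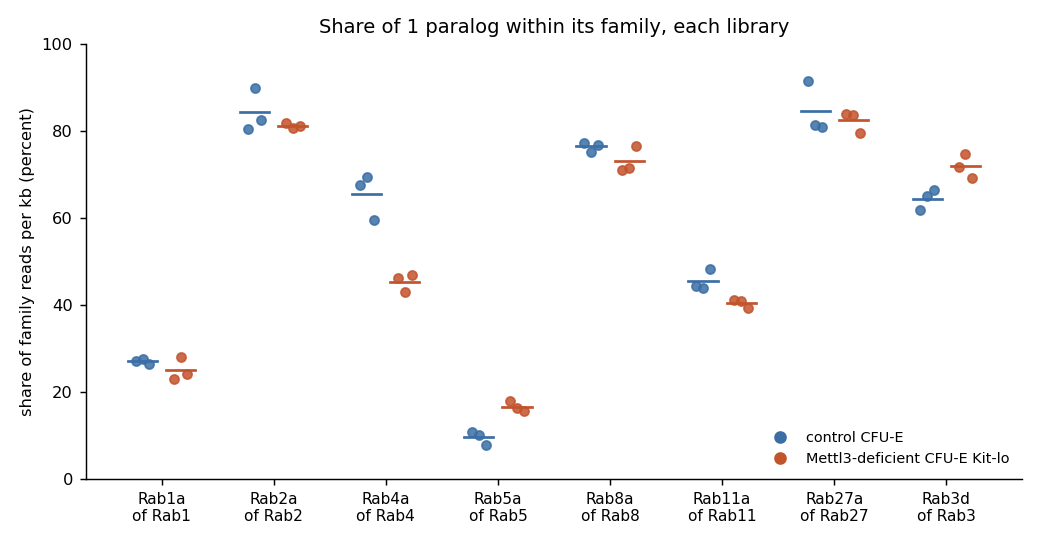
Share of the named paralog in the reads per kb of its family (vertical axis, percent) in each of the 3 control (blue) and 3 Mettl3-deficient CFU-E Kit-lo (orange) libraries, bars at the means. The mean share of Rab4a is 65.6% in control and 45.4% in Kit-lo, and that of Rab5a 9.69% and 16.7%.

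Of the machinery that lipidates, extracts and delivers Rab proteins, all 8 listed genes were tested, 2 fell and none rose. Over all genes tested, 9.83% were called lower and 12.1% higher. The median log2 fold change of the 8 was –0.59 (0.01 over all genes). Rabggta, the alpha subunit of Rab geranylgeranyl transferase, was at 74.5, 63.1 and 68.1 CPM in control and at 42.8, 33.6 and 31.1 CPM in Kit-lo (log2 –0.94 ± 0.14, edgeR adjusted p = 0.000676). Gdi2, a GDP dissociation inhibitor, was at 240.5, 241.5 and 259 CPM in control and at 153, 146 and 168 CPM in Kit-lo (log2 –0.67 ± 0.08, edgeR adjusted p = 0.000242). The catalytic beta subunit Rabggtb was lower within the fold limit (log2 –0.52 ± 0.14, edgeR adjusted p = 0.0163).

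Of the Rab GEFs 35 were tested, 5 rose and 3 fell. The steepest was Rab3il1, an exchange factor for Rab8, at 9.47 ± 1.497 CPM in control and 104.9 ± 5.03 CPM in Kit-lo (log2 3.47 ± 0.14, edgeR adjusted p = 2.54e-07). Dennd2c, a GEF reported for Rab9, followed (4.79 ± 1.47 to 21.3 ± 6.97 CPM, log2 2.15 ± 0.30), then Rgp1, of the Rab6 GEF (log2 1.16 ± 0.19), and Sbf1 (log2 0.85 ± 0.15). Those that fell were Dennd2d (log2 –1.42 ± 0.47), Trappc9 (log2 –1.09 ± 0.17) and Ankrd27, the Rab21 exchange factor also called Varp, from 255.5 ± 27.3 to 161 ± 25.9 CPM (log2 –0.67 ± 0.12).

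Of the GAPs 34 were tested, 4 rose and 5 fell. Tbc1d10b (log2 1.02 ± 0.16), Tbc1d25 (0.92 ± 0.17), Evi5 (0.84 ± 0.20) and Evi5l (0.78 ± 0.20) were higher. Tbc1d4, the GAP of insulin-regulated Rab10 traffic, fell most (log2 –1.85 ± 0.53, from 4.41 ± 1.73 to 1.21 ± 0.81 CPM), followed by Tbc1d8b (–0.94 ± 0.31), Tbc1d5 (–0.79 ± 0.18) and Rabgap1l (–0.59 ± 0.11). Of 36 effectors tested, 6 rose and 2 fell. Sytl1, a Rab27 effector, was at 0.35 ± 0.30 CPM in control and 4.21 ± 0.75 CPM in Kit-lo, Micall2, which binds Rab8 and Rab13, went from 7.13 ± 1.98 to 34.0 ± 3.17 CPM (log2 2.25 ± 0.21), Rab11fip5 from 4.49 ± 0.54 to 13.96 ± 2.96 CPM (log2 1.64 ± 0.23) and Bicd2, the Rab6 adaptor of dynein, from 28.1 to 61.8 CPM (log2 1.13 ± 0.16). Ehbp1 (log2 –2.38 ± 0.54) and Exoc6b (–0.85 ± 0.24) fell. The medians were 0.21 for GEFs, –0.09 for GAPs and –0.03 for effectors on the log2 scale, against 0.01 over all genes, and called shares are to be read against the 12.1% and 9.83% of all genes.

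**Figure D4:**
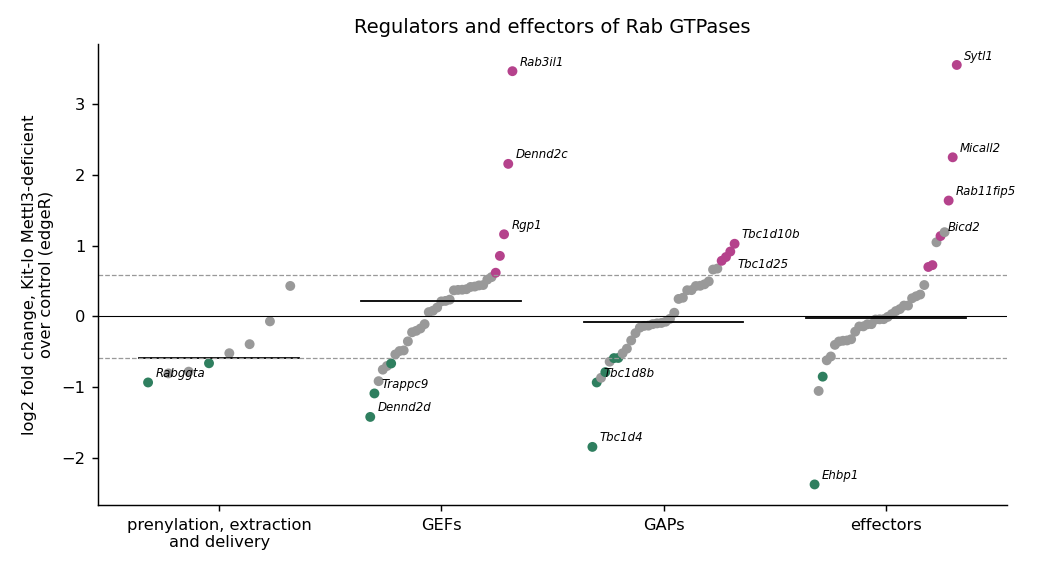
Log2 fold change, Mettl3-deficient CFU-E Kit-lo over control, of each tested regulator or effector (vertical axis), in 4 lists ordered by value, with a black bar at each list's median and dashed lines at a 1.5-fold change. Purple genes were called higher and green genes lower; 2 of 8 genes of the prenylation list are green and none is purple.

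The m6A comparison asked which transcripts of control CFU-E were captured by an antibody against m6A. In these libraries reads start from the 3′ end of the transcript, and an IP-to-input ratio is a gene-level enrichment that gives no position in the transcript. Of 54 members 49 passed the filter on low counts. None was called higher in IP, where 7.9% of the 11447 genes tested were (6 members had an unadjusted p under 0.05 in that direction by edgeR's quasi-likelihood test, and DESeq2 called 1, Rab18). Lower in IP were 7 members (14.3%), with a background of 7.86%. By DESeq2 8 members were lower, and all genes gave 8.88% higher and 10.4% lower. The median log2 ratio was –0.19 over the tested members and 0.06 over all genes. Scaling by library size alone moved the median of all genes up by 0.157, and upper quartile scaling by 0.128, and the members then gave 2 higher and 4 lower, and 3 higher and 5 lower. The background under library size alone was 8.16% of all genes higher and 5.31% lower, and under upper quartile scaling 12.7% and 6.59%. A fit with the replicate number as a block gave 5 members higher and 12 lower, where all genes gave 15.6% and 15.3%. The labels do not say that same-numbered libraries are pairs.

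**Figure D5:**
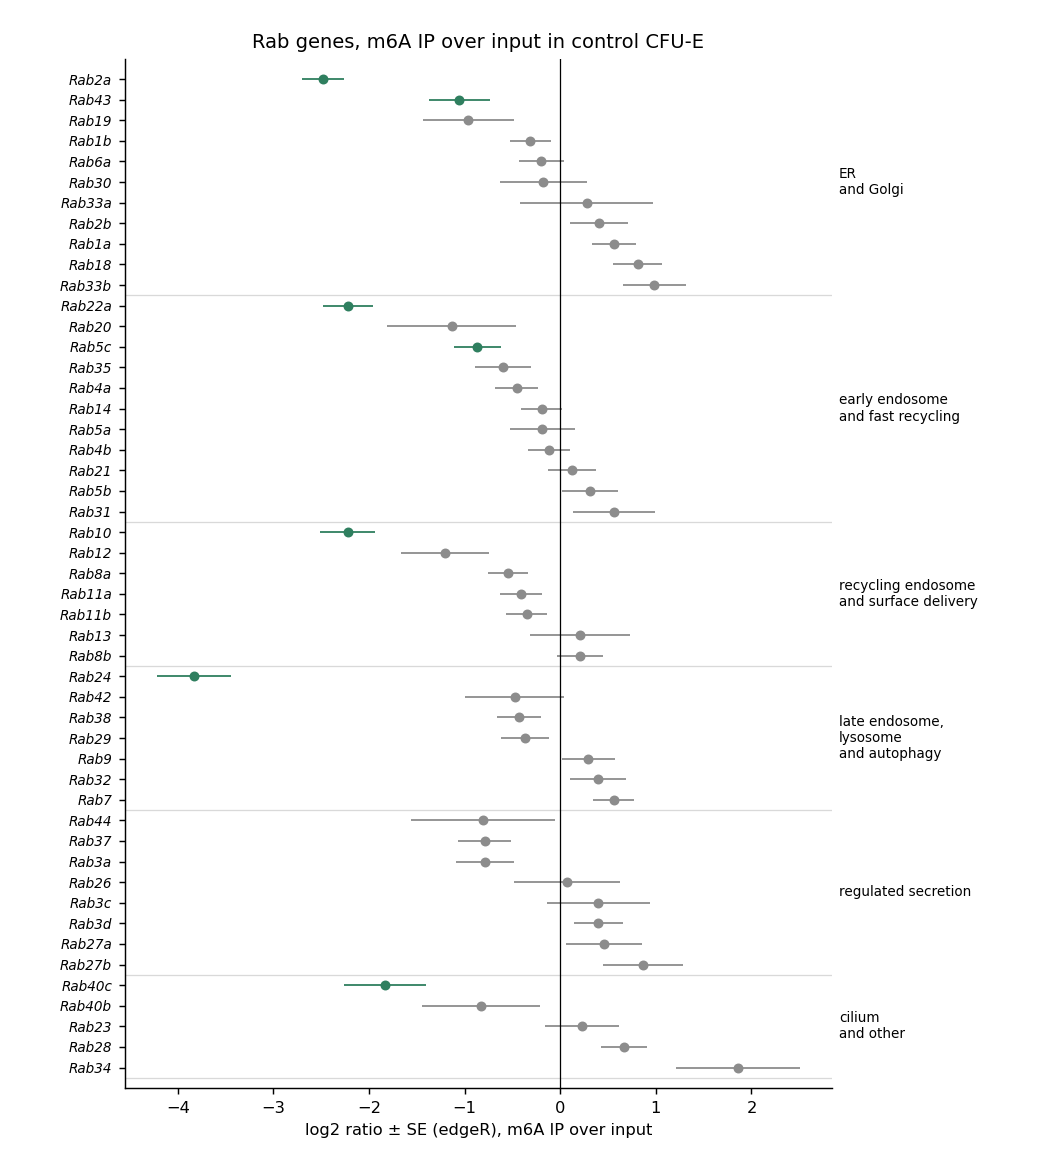
Log2 ratio of m6A IP over input in control CFU-E for each of the 49 tested Rab genes (horizontal axis, edgeR estimate ± SE, 2 libraries per group), grouped by the membrane on which the protein acts. The 7 green genes were called lower in IP, led by Rab24 at –3.83, and no gene was called higher.

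The 5 strongest of the depleted members had lower normalised levels in both IP libraries than in both inputs. Rab24, an autophagy-linked Rab, was at 180 and 229 CPM in input and at 20.2 and 8.24 CPM in IP (log2 –3.83 ± 0.39, edgeR adjusted p = 0.000114). Rab24 overlaps Prelid1 on the opposite strand over 62.4% of its exonic bases, and Prelid1 was itself lower in IP, at 411 and 439 CPM in input and 143 and 181 CPM in IP. Rab2a was at 286 and 295 CPM in input and at 48.8 and 54.9 CPM in IP (log2 –2.49 ± 0.22, edgeR adjusted p = 4.6e-05). Rab10, which directs surface delivery, was at 146 and 183 CPM in input and 44.4 and 26.0 CPM in IP (log2 –2.22 ± 0.29, edgeR adjusted p = 0.000602). Rab22a, an early endosome Rab, was at 62.0 and 50.2 CPM in input and 10.9 and 13.3 CPM in IP (log2 –2.22 ± 0.26, edgeR adjusted p = 0.0003). Rab40c, an unusual member that works with a ubiquitin ligase, was at 7.49 and 4.55 CPM in input and 2.18 and 1.10 CPM in IP (log2 –1.83 ± 0.43, edgeR adjusted p = 0.0177). Rab43 (log2 –1.06 ± 0.32) and Rab5c (–0.87 ± 0.25) were the other 2, and these, with Rab40c, lost the call under some alternatives, while Rab24, Rab2a, Rab10 and Rab22a kept it under all 11.

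On the high side no member passed, and the smallest adjusted p belonged to Rab18, at 86.9 and 61.5 CPM in input and 151 and 109 CPM in IP (log2 0.81 ± 0.26, edgeR adjusted p = 0.056), followed by Rab33b (log2 0.98 ± 0.33, edgeR adjusted p = 0.0687). Rab34 had the highest log2 ratio, 1.86, and did not pass either (edgeR adjusted p = 0.0767). Paralogs differed in the ratio as well: Rab2b had a log2 ratio of 0.40 ± 0.30 beside the –2.49 of Rab2a, and Rab5b had 0.31 ± 0.29 beside the –0.87 of Rab5c; the difference within a pair was not tested. Rab1a, Rab7 and Rab28 had log2 ratios of 0.56 ± 0.23, 0.56 ± 0.21 and 0.67 ± 0.24, and Rab4a had –0.46 ± 0.22, none of which passed. Groups without overlap, higher or lower in IP, were seen for 13 and 21 of the tested members, and for 32.2% and 28.7% of all genes.

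Both tables come from control CFU-E, but they were made with different library types and normalised apart, so the values are set side by side as a description. Rab24 averaged 205 CPM in input and 5.84 CPM in the control RNA-seq libraries, Rab2a 290.2 and 32.9 CPM, Rab10 164.5 and 35.5 CPM and Rab22a 56.1 and 21.2 CPM. Over the 7 depleted members the median log2 ratio of mean input to mean RNA-seq control level, with 1 CPM added to each, was 1.42. Rab43 alone of them had a lower input than RNA-seq level, at 11.3 and 33.9 CPM. The IP levels of the 7 had a median log2 ratio to the RNA-seq level of –0.01, from –2.43 for Rab43 to 1.15 for Rab24. The 36 members tested in both tables and not called had a median input ratio of –0.01. The same order held over all genes, with 1.25 for the 833 genes lower in IP, –0.58 for the 9076 not called and –2.09 for the 864 higher in IP. Input stands in both of these ratios, so the 2 are not independent, and the part of the library type was not tested.

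The bases GGACT, the most common core of the m6A consensus, were counted in the longest coding transcript. Members tested in the m6A table held a median of 0.864 per kb, and all 11441 genes with a sequence held 1.03 per kb. Rab1a, Rab1b, Rab9 and Rab14 held none, 4 of 49 members (8.16%), and 7.87% of all genes held none. The 7 depleted members had a median of 1.02 per kb.

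Among the regulators the m6A table gave calls in both directions, to be read against the 7.9% of all genes called higher and the 7.86% called lower. Of the 8 prenylation and delivery genes 2 were higher in IP and none lower, namely Chml, a Rab escort protein (log2 1.92 ± 0.49), and Gdi2 (0.83 ± 0.24). Of 37 GEFs tested 3 were higher, Dennd5a, Madd (1.30 ± 0.34) and Dennd4a (1.19 ± 0.29), and 1 was lower, Ccz1, of the Rab7 GEF (–1.73 ± 0.24). Of 31 GAPs 3 were higher, led by Tbck, at 32.4 CPM in input and 169.6 CPM in IP (2.39 ± 0.31), and 2 were lower, led by Evi5, at 46.8 and 4.72 CPM (–3.29 ± 0.31). Of 34 effectors Inpp5b and Bicd1 (0.95 ± 0.28) were higher and Rab11fip2 (–2.66 ± 0.63) was lower.

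No member was called in both comparisons except Rab43, which was higher in Kit-lo and lower in IP. The IP call of Rab43 was lost under some alternatives, and its exons overlap Gm45140 on the same strand. Gm45140 was at 0.40 and 0 CPM in input and at 2.40 and 0 CPM in IP. The part of reads split between the pair was not tested. Of the 5 members that rose in Kit-lo, Rab5a, Rab8b, Rab9 and Rab33b were not called in IP, with log2 ratios of –0.19, 0.21, 0.29 and 0.98. Of the 3 that fell, Rab4a, Rab37 and Rab38 had log2 ratios of –0.46, –0.79 and –0.43 and were not called either.

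RefSeq promoter windows (GRCm38.p6, 250 bases before to 50 after each start) existed for 45 of the 56 members, among them all 5 that rose. Rab4a, Rab37 and Rab38, the members that fell, had no window, so motifs could not be compared between risen and fallen members. The letters CACGTG, an E-box bound by several helix-loop-helix factors, stood in the windows of 6 of the 45 members (13.3%) and of 8.09% of 27025 genes. Of the members that rose it was found in Rab5a alone. The letters CCACCC, within the motif of KLF factors, were found on either strand for 25 members (55.6%; 34.0% of all genes), and AGATAA, a motif of erythroid zinc finger factors, for 2, Rab34 and Rab43 (4.44%; 12.7% of all genes). The 250 bases before the start are shown for Rab5a (chr17:53478984-53479233, + strand), with both copies of CACGTG in capitals, and for Rab8b (chr9:66919706-66919955, – strand), with the 3 copies of CCACCC or its reverse complement in capitals, as the members that rose with more than 1 copy in a single window.
Rab5a: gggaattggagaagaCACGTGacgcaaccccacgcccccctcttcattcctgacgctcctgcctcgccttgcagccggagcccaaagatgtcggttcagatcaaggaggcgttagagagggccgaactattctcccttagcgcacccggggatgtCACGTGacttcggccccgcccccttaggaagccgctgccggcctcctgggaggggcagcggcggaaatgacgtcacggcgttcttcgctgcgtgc
Rab8b: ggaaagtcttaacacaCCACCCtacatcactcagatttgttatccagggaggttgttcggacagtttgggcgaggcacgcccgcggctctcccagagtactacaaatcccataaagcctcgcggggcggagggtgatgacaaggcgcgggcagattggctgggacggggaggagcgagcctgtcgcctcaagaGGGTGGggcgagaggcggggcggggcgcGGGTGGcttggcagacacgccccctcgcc
A match of letters is a description of the window and not a binding site.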

How the data were processed

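The authors sequenced oligo-dT primed Smart-seq2 libraries (RNA-seq) and low-input m6A libraries with reads from the 3′ end, filtered reads with fastp 0.23.4, and quantified them with kallisto 0.48.0 and tximport on mm10; the submitters' notes also name GRCm39. The deposited values are estimated counts per gene, whole numbers, with no normalization; whether strand or the molecular identifiers of the m6A primer were used is not stated. Of 16 samples 10 had a column, and the 6 proerythroblast samples were not analysed here.

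Each table was fitted whole in R 4.3.3 with edgeR 4.0.16 (TMM, filterByExpr, quasi-likelihood test, Benjamini-Hochberg over all genes tested). An RNA-seq call needed a fold of at least 1.5 and an adjusted p under 0.05, an m6A call an adjusted p under 0.05. The SE of a log2 fold change is its size over the square root of F. DESeq2 1.42.0 was an alternative. The dispersion gave a biological coefficient of variation of 19.1% in RNA-seq and 21.9% in the m6A table. The fits were run on simulated data with larger planted changes than most of those called in RNA-seq, so that run does not cover smaller changes. The members, the lists of regulators and markers, the paralog families and the motifs were chosen with earlier results of these data known. Genes named with each library's value were every called member in RNA-seq, any called higher in IP, the 5 most depleted in IP and the 5 highest per kb. Regulator lists give up to 4 called genes per direction. Other members were named after their values were seen. Gene models were GENCODE M21 (GRCm38), figures matplotlib 3.10.9.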

Additional observations from a re-analysis of the deposited data

How the results depend on the processing

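Rab4a, Rab37 and Rab38 (lower) and Rab43 and Rab5a (higher) kept their RNA-seq calls under all 13 alternatives, and Rab24, Rab2a, Rab10 and Rab22a kept their depletion in IP under all 11. No call reversed its direction. The main counts were 5 higher and 3 lower in RNA-seq and 0 higher and 7 lower in IP. With no fold threshold the RNA-seq counts were 8 and 8. Upper quartile scaling gave 3 higher and 4 lower in RNA-seq (calls lost for Rab9 and Rab33b, gained for Rab2a), and 3 higher and 5 lower in IP. Library size alone gave 2 higher and 4 lower in IP, and DESeq2 gave 1 higher. Leaving out 1 library gave 3 to 6 higher and 3 to 5 lower in RNA-seq; the 3 came without control replicate 3 or Kit-lo replicate 2 (Rab9 lost its call in both), and the 5 without Kit-lo replicate 1 or 3. In IP it gave 0 to 2 higher, the 2 without IP replicate 2, and 4 to 8 lower, the 4 without input replicate 1. The lone library left in an m6A group was then taken to vary like the other group. The cause of these shifts was not tested, except that the fold threshold and the number of libraries act by construction.

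A fit with the replicate number as a block gave 4 higher and 3 lower in RNA-seq, and 5 higher and 12 lower in IP, where 15.6% of all genes were then higher and 15.3% lower. DESeq2 with that block, chosen after seeing the data, gave 3 and 11, where all genes gave 10.2% and 13.5%. Same-numbered RNA-seq libraries correlated at 0.0344, –0.017 and –0.0719, but 3 libraries per group are too few to show whether the numbers pair them. The 2 m6A pairs both correlated at 0.205, values that must be equal with 2 libraries per group. The labels do not say that the libraries of a pair share RNA. With 2 libraries per group and a 21.9% coefficient of variation, moderate IP enrichment may go uncalled.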
